A study of Homo sapiens with 6 samples.

Results

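The miR-183, miR-96 and miR-182 cluster gives 3 mature miRNAs, hsa-miR-183-5p, hsa-miR-96-5p and hsa-miR-182-5p (called miR-183-5p, miR-96-5p and miR-182-5p from here on), and all 3 had a row among the 471 rows of the miRNA count table. They were chosen by name, as products of one cluster on chromosome 7. Small RNA was sequenced from extracellular vesicles (EVs) in day 14 medium of spheroids of Cal27, an established human oral squamous cell carcinoma line, without any genetic change or drug. Spheroids were grown on Matrigel at 3 mg/mL, which gave EVsoft, or at 12 mg/mL, which gave EVstiff, with 3 libraries in each group, in medium with fetal bovine serum depleted of its own vesicles. All 6 libraries come from one cell line, and the Matrigel conditions differ in protein concentration and gel structure as well as in stiffness.

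The members of this cluster lie close together on one strand and are known to be cut from one long primary transcript, first by Drosha in the nucleus and then by Dicer in the cytoplasm. The cluster is known for its high level in sensory cells such as hair cells and photoreceptors, and it is also expressed in epithelia and often raised in epithelial tumours. FOXO1 and FOXO3, transcription factors that restrain growth, are known targets of miR-182 and miR-96. Products of one transcript start in equal numbers, but processing, stability and sorting into vesicles can differ between them, so a comparison of stiff and soft asks both whether the cluster moved and whether its products kept their proportions.

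The mature sequences are shown because the members have related but not identical seeds, the bases that pair with target mRNAs. They were taken from RefSeq on GRCh38.p14, and capitals mark the seed, bases 2 to 8 from the 5′ end.
miR-183-5p: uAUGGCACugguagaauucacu
miR-96-5p: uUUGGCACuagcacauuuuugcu
miR-182-5p: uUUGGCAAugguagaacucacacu
The mature miRNAs are 22, 23 and 24 bases long. With positions counted from 1 at the 5′ end and no gaps, miR-183-5p and miR-182-5p were identical at 18 of 22 positions and differed by A2U, C8A, U17C and U22A, of which A2U and C8A fall in the seed. The seed of miR-96-5p shares 6 of its 7 bases with that of miR-183-5p, from which it differs by A2U, and 6 of 7 with that of miR-182-5p, which differs from it by C8A. No 2 members thus have the same seed. One other miRNA of the table, miR-1271-5p, whose hairpin is on chromosome 5, has the seed of miR-96-5p in another body.
miR-1271-5p: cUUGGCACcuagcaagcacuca
It had 2 reads in EVsoft replicate 2 and none in the other libraries.

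On GRCh38 (GENCODE 44), the hairpins lie on the minus strand at chr7:129774905-129775014 (MIR183), chr7:129774692-129774769 (MIR96) and chr7:129770383-129770492 (MIR182). In the order of transcription, MIR183 and MIR96 are 135 bases apart, and MIR96 and MIR182 are 4199 bases apart. All 3 lie within the lncRNA gene ENSG00000286380 on the same strand, in an intron of 1 of its 5 annotated transcripts, and the other transcripts do not span them. The nearest protein-coding genes are NRF1, which lies 13301 bases from MIR182, and UBE2H, which lies 55718 bases from MIR183. The RefSeq hairpins of MIR182 and MIR96 are shown with the counted mature miRNA in capitals, on the 5′ arm of each.
MIR182: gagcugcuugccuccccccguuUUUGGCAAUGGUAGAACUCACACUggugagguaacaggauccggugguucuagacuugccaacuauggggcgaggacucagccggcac
MIR96: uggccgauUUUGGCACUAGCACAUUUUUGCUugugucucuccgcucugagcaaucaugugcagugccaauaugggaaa
The 3′ arm products of the 3 hairpins, miR-183-3p, miR-96-3p and miR-182-3p, had no row in the miRNA count table.

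The libraries held between 39211 and 66345 miRNA reads in EVsoft and between 28688 and 30685 in EVstiff, so every EVsoft library held more miRNA reads. The paper describes adjusting library volumes to aim for equal total reads, so these totals count miRNA reads and do not measure sequencing depth. All 5 listed squamous epithelial markers were present. Their summed level was 53176 to 64051 counts per 1000000 scaled reads (CPM) in EVsoft and 49229 to 50390 CPM in EVstiff. Most of this sum was miR-205-5p (means of 29760 CPM in EVsoft and 34300 CPM in EVstiff) and miR-200c-3p (27027 and 12586 CPM). The means of miR-203a-3p (974 and 2327 CPM), miR-31-5p (803 and 450 CPM) and miR-141-3p (351 and 115 CPM) were much lower. Of the other lists, 4 of 5 stromal and muscle markers had reads (194 to 1077 CPM in EVsoft, 500 to 721 CPM in EVstiff), as did 3 of 4 blood markers (463 to 1553 and 366 to 1977 CPM), the endothelial miR-126-3p (74.0 to 149 and 71.9 to 199.8 CPM) and 1 of 2 neuronal markers (14.9 to 98.6 CPM and none). The stromal and muscle reads were mainly miR-1-3p, with 109 in all, beside 15 of miR-143-3p, 2 of miR-199a-3p and 1 of miR-214-3p. Those of the blood markers were mainly miR-486-5p, with 168, beside 24 of miR-451a and 1 of miR-223-3p. The liver miRNA miR-122-5p was at 2762 to 4339 CPM in EVsoft and 6462 to 7512 CPM in EVstiff. The paper, citing earlier work, describes miR-122-5p as specific to small EVs of head and neck cancer lines. It also reports this miRNA as raised in EVstiff by sequencing and by qRT-PCR. The source of the reads of these other lists, and their part in the results below, was not tested. On the second principal component, replicate 2 of each group lay apart from the other libraries (-3.04 and -2.51 against 1.11 to 1.76).

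In these EVs miR-183-5p and miR-182-5p were number 43 and number 50 of the 471 rows by mean CPM, while miR-96-5p was near the limit of detection. After TMM scaling between libraries, neither miR-183-5p nor miR-182-5p differed between EVsoft and EVstiff beyond the spread between replicates. The plot of members by library shows the raw counts and the scaled levels side by side.

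**Figure D1:**
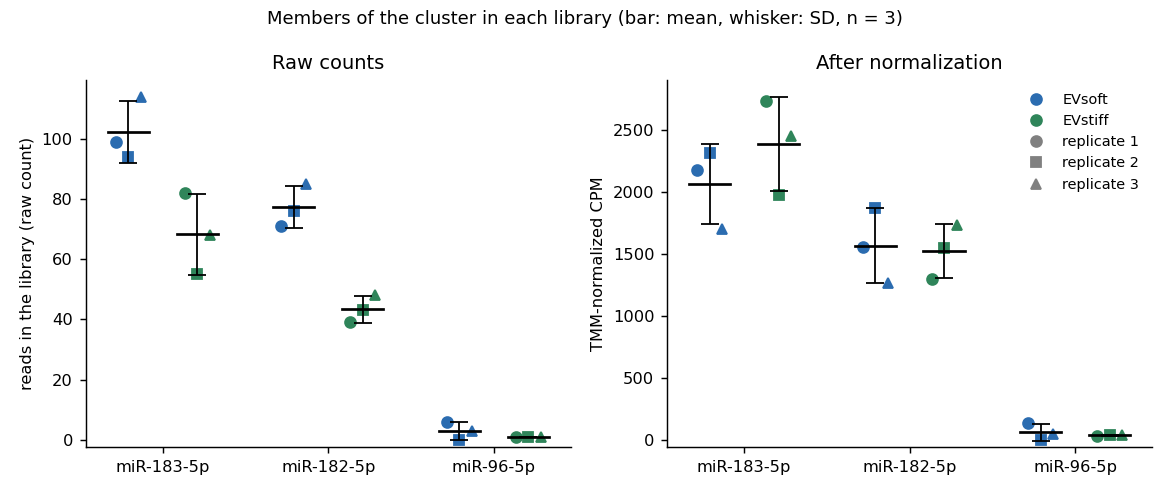
Reads (left) and TMM-normalized CPM (right) of the 3 members in each library, with the group mean as a bar and the SD as a whisker (n = 3). Reads of miR-183-5p and miR-182-5p were lower in all EVstiff libraries, the CPM values overlapped, and miR-96-5p had at most 6 reads.

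For miR-183-5p, the reads numbered 99, 94 and 114 in the EVsoft libraries and 82, 55 and 68 in the EVstiff libraries. In TMM-normalized CPM these were 2175, 2317 and 1702 in EVsoft, a mean of 2065 ± 322 (SD, n = 3), and 2731, 1977 and 2451 in EVstiff, a mean of 2386 ± 381 (SD, n = 3). The raw reads were lower in every EVstiff library than in every EVsoft library, whereas the CPM overlapped. Its log2 fold change, EVstiff over EVsoft, was 0.22 (standard error 0.21, 95% interval -0.25 to 0.69, edgeR's quasi-likelihood test, adjusted p = 0.46 over the 105 miRNAs tested). As a fold, this is 1.16 with an interval from 0.839 to 1.61.

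For miR-182-5p, the reads numbered 71, 76 and 85 in EVsoft and 39, 43 and 48 in EVstiff. Its level was 1560, 1874 and 1269 CPM in EVsoft, a mean of 1568 ± 302 (SD, n = 3), and 1299, 1545 and 1730 CPM in EVstiff, a mean of 1525 ± 216 (SD, n = 3). Again the raw reads did not overlap and the CPM did, with the lowest level of all in EVsoft replicate 3 and the highest in EVsoft replicate 2. The log2 fold change was -0.03 (standard error 0.24, 95% interval -0.56 to 0.50, edgeR, adjusted p = 0.95), a fold of 0.978 with an interval from 0.677 to 1.41. The interval of miR-182-5p lies inside the threshold for a call, an absolute log2 fold change of 0.58, and the upper end of that of miR-183-5p passes it.

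Neither member was called, where the call rule, that fold threshold with an adjusted p of at most 0.05, took 18.1% of the miRNAs tested. The CPM ranges of EVsoft and EVstiff were apart for 47.6% of the miRNAs tested, and the reads were lower in every EVstiff library for 64.8%, so that the non-overlap of raw reads was shared with most miRNAs. In the order of mean CPM over the whole table, miR-183-5p was number 43 and miR-182-5p number 50. Neither had more than 114 reads in any library, so both values rest on few reads.

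These values depend on the scaling between libraries. When every library was given the same size, in place of scaling to its own total, the log2 fold change was -0.58 for miR-183-5p (edgeR, adjusted p = 0.127) and -0.83 for miR-182-5p (adjusted p = 0.0442), and 54.3% of the miRNAs tested were called lower in EVstiff. Without replicate 2 of both groups, the libraries that stood apart, the log2 fold changes were 0.42 for miR-183-5p (edgeR, adjusted p = 0.156) and 0.09 for miR-182-5p (adjusted p = 0.843), again not called. In bulk EV preparations, fewer vesicles and less of a miRNA per vesicle cannot be told apart, and CPM measures a miRNA against the rest of its own library.

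The third member, miR-96-5p, had 6, 0 and 3 reads in the EVsoft libraries and 1 read in each EVstiff library. These are 132, 0 and 44.8 CPM in EVsoft and 33.3, 35.9 and 36.0 CPM in EVstiff, and number 199 in the order of mean CPM. A count of 0 allows up to 3 reads, or 44.8 to 108 CPM depending on the miRNA reads of the library, so most of its levels are at or under that limit. It had too few reads for the filter and was not tested. Pooled over libraries, 9 reads in EVsoft and 3 in EVstiff give a ratio of TMM-scaled levels of 0.596, EVstiff over EVsoft, with an exact 95% interval from 0.104 to 2.39 that covers counting error only. Without EVsoft replicate 1, the library with most of its reads, the ratio was 1.25. A difference in miR-96-5p was thus not detectable with so few reads.

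Summed over the members, the cluster had 176, 170 and 202 reads in EVsoft and 122, 99 and 117 in EVstiff. In CPM the sum was 3867, 4191 and 3016 in EVsoft, a mean of 3691 ± 607 (SD, n = 3), and 4064, 3558 and 4218 in EVstiff, a mean of 3947 ± 345 (SD, n = 3). The groups overlapped, and the mean log2 level differed by 0.11, EVstiff minus EVsoft (exact two-sided permutation test, p = 0.6, or 1.0 after adjustment over the 6 single values compared). The smallest p that 3 libraries against 3 allow is 0.1, so no single value compared in this way could pass 0.05. With the same size for every library the difference was -0.70, and without EVsoft replicate 3, the library with the lowest sum, it was -0.03. Without both replicates 2 it was 0.27. As a share of all miRNA reads, the cluster was between 0.304% (95% exact binomial interval 0.264 to 0.349) in EVsoft replicate 3 and 0.434% (0.371 to 0.504) in EVsoft replicate 2, and the EVstiff libraries lay between, at 0.398%, 0.345% and 0.394%.

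Whether the products kept their proportions can be read within each library, where no scaling enters. In 5 of the 6 libraries there were between 0.708 and 0.810 reads of miR-182-5p for each read of miR-183-5p (0.5 added to each count), and EVstiff replicate 1 stood lower at 0.479. Of the reads of these members together, miR-182-5p made up 41.8%, 44.7% and 42.7% in EVsoft and 32.2%, 43.9% and 41.4% in EVstiff. The exact 95% binomial interval of EVstiff replicate 1, from 24.0 to 41.3, overlapped that of every other library, and least that of EVsoft replicate 2 with 37.1 to 52.5. The plot of shares shows that pattern.

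**Figure D2:**
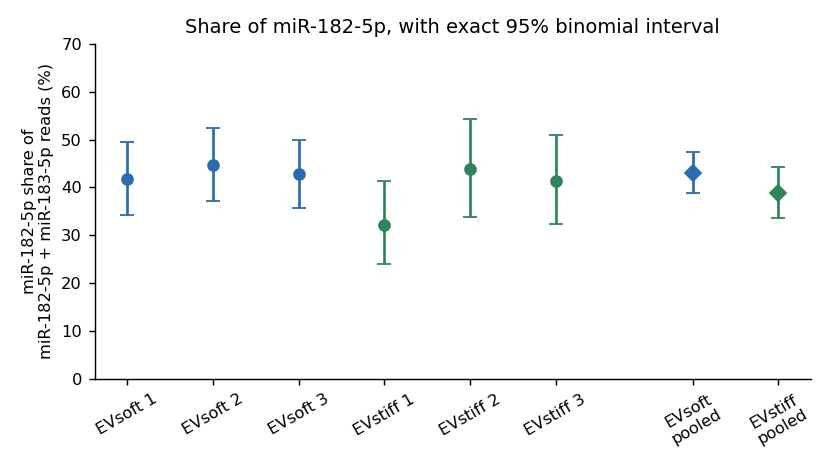
Percent of miR-182-5p among the reads of miR-182-5p and miR-183-5p in each library and pooled by group, with exact 95% binomial intervals, which cover counting error only. The shares of single libraries lie between 41.4% and 44.7% except in EVstiff replicate 1, at 32.2%, and the pooled shares are 43.0% in EVsoft and 38.8% in EVstiff.

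The log2 ratio of miR-182-5p to miR-183-5p, with 0.5 added to each count, was -0.40 ± 0.09 (SD, n = 3) in EVsoft and -0.64 ± 0.38 (SD, n = 3) in EVstiff. The difference of -0.24 was smaller than the spread between the EVstiff libraries (exact two-sided permutation test, p = 0.4, or 1.0 after adjustment over the 6 single values). In pooled reads, 232 to 307 in EVsoft and 130 to 205 in EVstiff, the log2 odds ratio was -0.25 with a counting interval from -0.67 to 0.16. Without EVstiff replicate 1 the difference in mean log2 ratio was -0.02, and without both replicates 2 it was -0.33. These reads therefore do not show a change in proportion. The counting interval reaches -0.67, towards miR-183-5p in EVstiff. It covers counting error only and not the spread between libraries, so it does not bound the size of a change.

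For miR-96-5p the proportions are known only roughly. Its share of the reads of the cluster was 3.41% (exact 95% binomial interval 1.26 to 7.27) in EVsoft replicate 1, 0 of 170 reads in EVsoft replicate 2, which by the limit of 3 reads allows a share of up to 1.76% (upper end of the exact interval 2.15%), and 1.49% (0.307 to 4.28) in EVsoft replicate 3. In EVstiff it was 0.820%, 1.01% and 0.855%, each resting on 1 read. Pooled, the share was 1.64% (0.754 to 3.09) in EVsoft and 0.888% (0.183 to 2.57) in EVstiff, and these intervals overlap. The mean log2 ratio of miR-96-5p to miR-183-5p differed by 0.01 between the groups and that to miR-182-5p by 0.25 (exact two-sided permutation tests, p = 1.0 for each, and 1.0 after adjustment). Leaving out EVsoft replicate 2, which had no read of it, turned these differences to -1.02 and -0.83, and leaving out EVsoft replicate 1 gave 0.80 and 1.07. What the libraries show in common is that miR-96-5p was the least read product of the cluster in each of the 6, and its hairpin lies between the other two in the transcript.

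The cluster was next set against a second epithelial cluster, miR-200b-3p, miR-200a-3p and miR-429, which is known to restrain ZEB1 and ZEB2 and thereby hold cells in an epithelial state. The reads of the miR-183 cluster relative to those of the miR-200b cluster, with 0.5 added to each sum, were 0.445, 0.429 and 0.302 in EVsoft and 0.788, 0.689 and 0.701 in EVstiff. The ratio was higher in every EVstiff library than in every EVsoft library. Such separation was common, as the CPM ranges of the groups were apart for 47.6% of the miRNAs tested. By edgeR, the log2 fold changes were -0.73 for miR-200b-3p, -1.12 for miR-200a-3p and -0.76 for miR-429. The mean log2 level of the miR-183 cluster sum differed by 0.11, so the higher ratio reflects mainly lower levels of the miR-200b cluster. The mean log2 ratio was -1.37 ± 0.31 (SD, n = 3) in EVsoft and -0.46 ± 0.11 (SD, n = 3) in EVstiff, a difference of 0.91 or 1.88-fold (exact two-sided permutation test, p = 0.1, which is the lowest reachable, and 0.6 after adjustment over the 6 single values). It stayed between 0.73 and 1.01 when each library was left out in turn, and was 1.02 without both replicates 2. The counting interval of the pooled log2 odds ratio ran from 0.70 to 1.21, which covers counting error only and not the spread between libraries.

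The cluster was also set against the miR-17 cluster, which is known for driving proliferation. There were 0.174, 0.187 and 0.128 reads of the miR-183 cluster for each read of the 6 listed miR-17 cluster products (miR-17-5p, miR-18a-5p, miR-19a-3p, miR-20a-5p, miR-19b-3p and miR-92a-3p) in EVsoft and 0.171, 0.143 and 0.146 in EVstiff. The groups overlapped, with a difference in mean log2 ratio of -0.07 (exact two-sided permutation test, p = 0.8, or 1.0 after adjustment over the 6 single values). The pooled log2 odds ratio had a counting interval from -0.25 to 0.18, which again leaves out the spread between libraries. Most of these reads were miR-92a-3p, with between 668 and 1437 reads in a library, and miR-92a-3p and miR-19b-3p also come from a paralogous cluster, so their reads cannot be assigned to this cluster alone. The sum hides unlike values of its members. For miR-92a-3p the log2 fold change was 0.26 (edgeR, adjusted p = 0.0928), whereas miR-17-5p was at 665 ± 78.0 CPM in EVsoft and 312 ± 178 CPM in EVstiff (SD, n = 3 each; log2 fold change -1.08, edgeR, adjusted p = 0.0882). For miR-20a-5p the log2 fold change was -0.81 (edgeR, adjusted p = 0.132), and none of these was called. The CPM of each did not overlap between EVsoft and EVstiff, which was also so for 47.6% of all miRNAs tested. Without EVsoft replicate 3 the difference was -0.24, and without EVsoft replicate 2 it was 0.04.

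**Figure D3:**
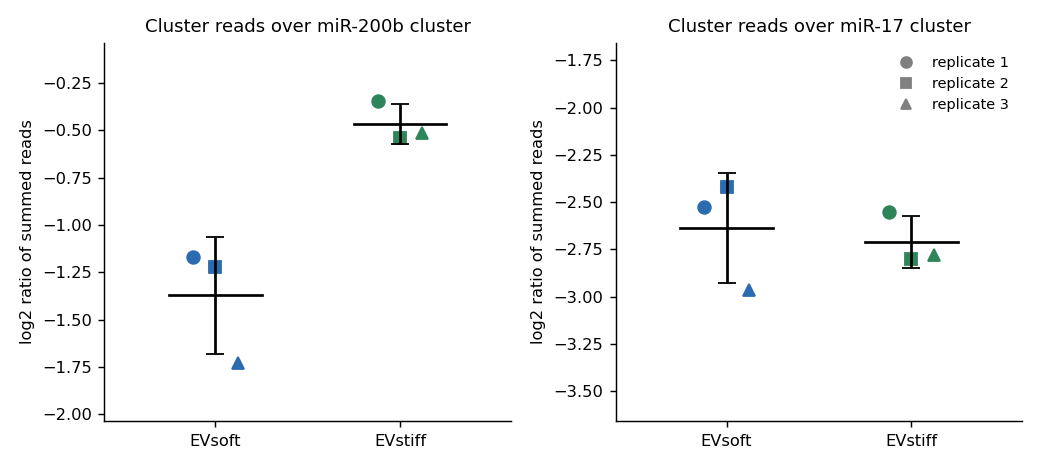
Log2 ratio of the summed reads of the miR-183 cluster to those of the miR-200b cluster (left) and the miR-17 cluster (right) in each library, with the group mean and SD (n = 3). The left ratio is higher in all EVstiff libraries, and the right ratio overlaps between the groups.

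The products of the miR-200b cluster serve as a second example of proportions within one transcript. The log2 ratio of miR-200a-3p to miR-200b-3p was -1.80 ± 0.38 (SD, n = 3) in EVsoft and -2.20 ± 0.47 (SD, n = 3) in EVstiff, and that of miR-429 to miR-200b-3p was -2.81 ± 0.23 and -2.86 ± 0.47 (SD, n = 3 each). The ratio of miR-429 to miR-200a-3p was -1.01 ± 0.27 in EVsoft and -0.66 ± 0.76 in EVstiff (SD, n = 3 each). In pooled reads, the log2 odds ratio of miR-200a-3p to miR-200b-3p, EVstiff over EVsoft, was -0.42 with a counting interval from -0.85 to -0.01, although the ratios of the libraries overlapped. The SD of the ratio of miR-182-5p to miR-183-5p, 0.09 in EVsoft and 0.38 in EVstiff, was below all 3 of these in each group. In EVstiff, miR-200a-3p had 18 to 30 reads in a library and miR-429 had 12 to 21. There were more of miR-182-5p (39 to 48), miR-183-5p (55 to 82) and miR-200b-3p (100 to 128). Whether the spreads differ, and the part of these read numbers in them, was not tested.

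Among other miRNAs known in epithelium, those called were all of the miR-200 family. Of 7 listed, 6 passed the filter, and 3 of these, the miR-200 family members miR-200c-3p (log2 fold change -1.10, standard error 0.11), miR-200a-3p (-1.12, standard error 0.27) and miR-200b-3p (-0.73, standard error 0.16), were called lower in EVstiff and 0 higher by edgeR's quasi-likelihood test. The same rule called 7.62% of all miRNAs tested lower and 10.5% higher. The median log2 fold change of these 6 was -0.75, beside -0.04 for all miRNAs tested. As most of the 6 belong to the miR-200 family, this median mainly describes that family. The keratinocyte miRNAs of the list were not called, with 0.20 for miR-205-5p (adjusted p = 0.168) and 1.21 for miR-203a-3p (adjusted p = 0.127), and neither was miR-429 at -0.76 (adjusted p = 0.0745). The untested member, miR-141-3p, had between 13 and 25 reads in EVsoft and between 2 and 6 in EVstiff. The values of miR-183-5p and miR-182-5p, 0.22 and -0.03, lie above those of the tested miR-200 family members, with intervals that include 0.

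**Figure D4:**
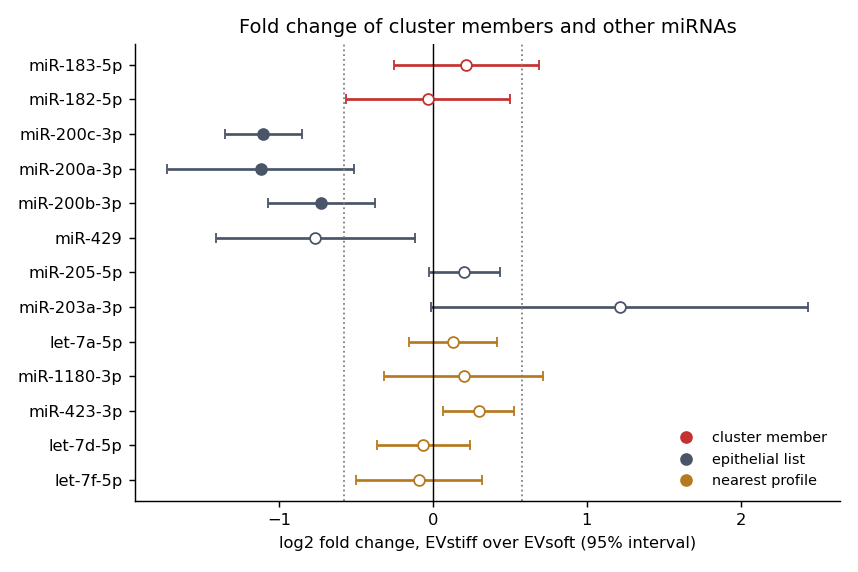
Log2 fold change, EVstiff over EVsoft, with its 95% interval for the 2 tested members (red), the tested miRNAs of the epithelial list (grey) and the 5 miRNAs with the nearest profile (ochre). Filled points were called, and dotted lines mark an absolute log2 fold change of 0.58. The intervals of both members include 0, while those of miR-200c-3p, miR-200a-3p and miR-200b-3p lie below it.

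The tested miRNAs whose profile over the 6 libraries was nearest to the cluster sum were let-7a-5p, miR-1180-3p, miR-423-3p, let-7d-5p and let-7f-5p, with a root mean square difference of centred log2 levels of 0.087, 0.121, 0.127, 0.137 and 0.174. The level of let-7a-5p was 46627, 55863 and 41351 CPM in EVsoft and 49429, 47874 and 59842 CPM in EVstiff. Like the cluster sum, it was lowest in EVsoft replicate 3 and highest in EVstiff replicate 3, with EVsoft replicate 2 next to highest. As these were picked for likeness, their fold changes, between -0.09 and 0.30, are a description.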

How the data were processed

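Small RNA from 6 EV samples (3 EVsoft, 3 EVstiff) was sequenced after gel selection of libraries, and the labels give groups and replicate numbers. The authors deposited raw read counts per miRNA, after quality control with exceRpt and counting of features defined in RefSeq. The submitters' processing notes name hg38, and the aligner and the handling of duplicate reads are not given in the sources used here. The paper describes EV samples as separate isolations from separate cultures.

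The tests across miRNAs used edgeR 4.0.16 under R 4.3.3 (filterByExpr, which kept 105 miRNAs, TMM, quasi-likelihood test, Benjamini-Hochberg adjustment). A call needed an adjusted p of at most 0.05 together with a log2 fold change beyond 0.58 in either direction. A standard error is the fold change divided by the square root of F. Single values were compared with exact two-sided permutation tests (scipy 1.17.1). Intervals of shares are exact binomial (Clopper-Pearson), and PCR copies are not independent molecules. The most alike pair of libraries differed by a chi-square of 3.40 per degree of freedom, and each library was kept as its own replicate. The members and lists were chosen with earlier results of these data known. The miRNAs named are the members, those sharing a seed, the listed clusters, markers and epithelial miRNAs, and the 5 nearest to the cluster sum. RefSeq held the mature sequence of all 3 members and of 418 of the 475 names in the table. The procedure was tested on simulated data. Alternatives were DESeq2 1.42.0, limma-voom (limma 3.58.1), other scalings, filters and pseudocounts, leaving out each library, and blocking on the replicate number. Leaving out both replicates 2 was added after seeing the data.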

Additional observations from a re-analysis of the deposited data

How the results depend on the processing

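The sign of miR-182-5p was not settled. Its log2 fold change of -0.03 became 0.0157 with DESeq2, 0.0154 with RLE factors, 0.0264 with upper quartile factors and 0.0946 without both replicates 2, and ranged from -0.17 to 0.11 when each library was left out. It was called only with the same size for every library (-0.83), the scaling under which miR-183-5p turned to -0.58, the cluster sum to -0.70 and the number of miRNAs called went from 19 to 57. For miR-183-5p, each other alternative gave a positive value, from 0.09 to 0.35 when each library was left out, and it was never called. The number of miRNAs called ranged from 13 to 19 when each library was left out. Deviations from the group means were weakly correlated between libraries of the same replicate number (-0.13, 0.13 and -0.03 for numbers 1, 2 and 3). With 3 libraries in each group, this cannot decide whether the numbers pair the libraries. Both replicates 2 lay apart on the second principal component. With a replicate block, the log2 fold changes were 0.22 for miR-183-5p and -0.03 for miR-182-5p and 16 miRNAs were called. A pseudocount of 1 moved no ratio by more than the spread between replicates. The ratio of miR-96-5p, EVstiff over EVsoft, ranged from 0.438 to 1.25 when each library was left out, and without a filter on low counts edgeR gave it a log2 fold change of -0.74 (standard error 1.47). The low number of reads limits miR-96-5p most, with 12 reads in all. With DESeq2, limma-voom, a replicate block and the filter of 10 counts, miR-96-5p has no value here.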
